A study of Mus musculus with 12 samples.

Results

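Immediate early genes are the genes that a cell switches on first when a growth factor or another signal reaches it. The 10 genes described here are Fos, Fosb, Fosl1, Jun, Junb, Egr1, Ier2, Dusp1, Atf3 and Srf. They were chosen by name, and all 10 were found, among 21938 protein-coding genes of the mouse annotation. Together they have 28 annotated transcripts. For each gene, the RNA level was read in mESCs and NIH3T3 cells, and the peaks of 7 ChIP-seq lists were taken where they overlapped the gene body or the 5 kb on either side of it.

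mESCs, here E14 cells, come from the early mouse embryo and can form all its tissues, and NIH3T3 is a mouse embryonic fibroblast line. Both lines were grown in GMEM with serum and LIF, a cytokine that keeps mESCs undifferentiated, and no stimulation of either line is labelled. The ChIP-seq libraries of mESCs were made for Ctr9 (a subunit of the Paf1 complex, which travels with RNA polymerase II), NELFA (a subunit of the pausing factor NELF), H3K27ac (a histone mark of active promoters and enhancers), and RNAPII phosphorylated at Ser5 (Ser5p) or Ser2 (Ser2p) of its C-terminal repeats. Those of NIH3T3 cells were made for Ctr9 and H3K27ac. Ctr9 and NELFA were pulled down through a GFP tag with an anti-GFP antibody. The Ctr9 tag was placed at the gene itself and pools of tagged cells were used in both lines, whereas NELFA was tagged on an added bacterial artificial chromosome in mESCs. The Ser5p library came from the NELFA-tagged mESCs, so Ctr9 is set beside NELFA and Ser5p across differently tagged cells. For Ser2p and H3K27ac, the tag the cells carried is not given in the sources used here. Whether the cells used for RNA-seq carried a tag is not given in the sources used here. Each of the 9 libraries analysed stands alone, so no difference between the cell types has a replicate check and no test was made. The RNA-seq libraries held 26400407 estimated counts in mESCs and 28849497 in NIH3T3 cells, and intervals given with RNA values are 95% exact intervals for counting error only.

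Immediate early genes are induced within minutes, without new protein synthesis, mainly through the ERK kinase cascade and the transcription factors SRF, the Elk proteins and CREB that are already on their promoters. RNAPII often waits just downstream of their start sites before it is released into the gene. Most of their products are transcription factors, among them the Fos and Jun proteins that pair to form AP-1, and their mRNAs are short-lived.

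The marker genes fitted the labels of both RNA-seq libraries. The 5 mESC markers added up to 2544 TPM (a share of all transcripts, corrected for transcript length) in mESCs and 0.511 TPM in NIH3T3 cells, where Pou5f1, Sox2, Esrrb and Zfp42 were listed at 0 and Nanog made up the rest. The most abundant of them, Pou5f1, stood at 1402 TPM in mESCs. The 6 fibroblast markers added up to 4114 TPM in NIH3T3 cells and 171 TPM in mESCs, of which Vim, also expressed by mESCs, made up 162 TPM. The collagen genes Col1a2 and Col1a1 stood at 0.132 and 0.203 TPM in mESCs and at 1082 and 901 TPM in NIH3T3 cells. Col5a1 went from 2.38 to 94.5 TPM and the receptor gene Pdgfrb from 0.543 to 39.6 TPM between mESCs and NIH3T3 cells. The 6 markers of differentiated cells were low, at a sum of 5.93 TPM in mESCs and 4.73 TPM in NIH3T3 cells, with Gata4 the most abundant in both (2.21 and 2.85 TPM). Pax6 stood at 2.02 and 0.154 TPM, Gata6 at 0.249 and 1.51 TPM, and Sox1 at 1.16 TPM in mESCs and listed at 0 in NIH3T3 cells.

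Most of the genes are short. In mm10 coordinates, Fos lies at chr12:85473890-85477273 on the plus strand, Fosb at chr7:19302696-19310051 on the minus strand and Fosl1 at chr19:5447547-5455946 on the plus strand. Jun, a gene without introns, lies at chr4:95049034-95052222 on the minus strand, Junb at chr8:84974484-84978718 on the minus strand and Ier2 at chr8:84661331-84662852 on the minus strand. Dusp1 spans chr17:26505590-26562128 and Srf chr17:46548329-46556175, both on the minus strand, Atf3 spans chr1:191170296-191218039 on the minus strand, and Egr1 lies on a plus strand. The median length of the gene bodies was 6259 bps, against 17425 bps over all protein-coding genes. The exceptions are Atf3 and Dusp1. The Dusp1 body of 56539 bps comes from a far upstream start, while its most abundant transcript spans 2930 bps. Distances below are counted from the start of the coding transcript with the highest TPM over both libraries, positive in the direction of transcription. Of the 28 transcripts, the coding ones of Atf3 started at 2 places, and the 2 forms had nearly the same TPM, so distances at Atf3 are the least certain.

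The promoters of 5 of the genes are shown here because peaks of the study fell on them and because they carry sites of the factors named above. Promoters of 7 of the 10 genes were matched in a RefSeq table (GRCm38.p6), not those of Egr1, Fosl1 and Ier2. Each line gives the 150 bases before the RefSeq start site, 5′ to 3′ on the strand of the gene. Capitals mark the CRE core (TGACG), the CArG box bound by SRF, and the TATA box (TATAAA), found on either strand. The stretches are chr12:85473740-85473889 on the plus strand for Fos, and on the minus strand chr7:19310046-19310195 for Fosb, chr8:84978749-84978898 for Junb, chr17:26508473-26508622 for Dusp1 and chr17:46556163-46556312 for Srf.
Fos: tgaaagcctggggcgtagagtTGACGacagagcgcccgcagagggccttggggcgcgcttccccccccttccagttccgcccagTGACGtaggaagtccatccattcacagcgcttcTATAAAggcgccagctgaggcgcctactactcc
Fosb: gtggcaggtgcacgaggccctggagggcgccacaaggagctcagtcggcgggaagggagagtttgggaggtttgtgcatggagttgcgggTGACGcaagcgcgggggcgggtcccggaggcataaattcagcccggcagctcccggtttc
Junb: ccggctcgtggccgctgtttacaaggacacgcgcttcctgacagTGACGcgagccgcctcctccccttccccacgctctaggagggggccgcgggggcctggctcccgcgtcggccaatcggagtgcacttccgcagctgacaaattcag
Dusp1: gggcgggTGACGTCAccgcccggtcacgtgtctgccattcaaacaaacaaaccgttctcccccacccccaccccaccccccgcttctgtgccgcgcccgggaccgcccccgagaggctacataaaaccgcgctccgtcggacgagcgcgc
Srf: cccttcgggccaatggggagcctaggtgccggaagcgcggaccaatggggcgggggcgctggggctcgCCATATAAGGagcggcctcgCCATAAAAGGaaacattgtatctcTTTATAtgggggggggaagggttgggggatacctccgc

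Counted from the start site, with -1 as the base before it, Fos had CRE cores at -129 and -66 and a TATA box at -33. Fosb had a CRE core at -60 and Junb at -106. Dusp1 had the full palindromic CRE (TGACGTCA) at -143, in which a CRE core lies on each strand. Srf, the gene of the CArG-binding factor itself, had CArG boxes at -82 and -62 and a TATA box on the opposite strand at -38. Over the whole promoters, from 250 bases before to 50 after the start, the CRE core was in 6 of the 7 genes with a promoter (all but Jun), and in 20.8% of the 32851 promoters of the table. The full CRE was in 1 of 7 (Dusp1), against 1.79% of all promoters, and the CArG box in 1 of 7 (Srf), against 1.63%. A TATA box was in 3 of 7 (Fos, Srf and Junb), against 13.6%. At Junb it begins at the first base after the RefSeq start, which places it upstream of the start used for distances. The AP-1 site (TGANTCA), bound by the Fos and Jun proteins, was in 0 of 7, against 7.81% of all promoters. These are matches of letters in this window only. The RefSeq start of Junb lies 30 bps upstream of the start used for distances, those of Dusp1, Srf and Fosb lie 47, 13 and 1 bps downstream of it, and that of Atf3 lies 34706 bps downstream, at its second start. In mESCs, NELFA peaks lay on 4 of the 7 promoters (Fos, Jun, Junb and Dusp1), against 5.04% of all promoters in the table. Ser5p peaks lay on 2 (Junb and Dusp1), against 5.11%, and H3K27ac peaks on 2 (Dusp1 and Srf), against 18.6%. Ctr9 peaks of mESCs lay on 1 (Junb), against 6.43%, and Ser2p peaks on 0, against 0.889%. In NIH3T3 cells Ctr9 and H3K27ac peaks each lay on 6, the exception being Atf3, against 5.11% of all promoters for Ctr9 and 30.4% for H3K27ac. These shares were not limited to promoters of expressed genes.

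The RNA levels of the 10 genes did not move as one group between the cell types. On the log2(TPM + 1) scale, which understates the change of low genes, 5 of the 10 (Fosl1, Jun, Egr1, Junb and Srf) were at least 2-fold higher in NIH3T3 cells, where 20% of the 12384 genes compared were. Another 2 (Ier2 and Dusp1) were at least 2-fold higher in mESCs, where 23.9% of all genes were. Fos and Atf3 differed by less, and Fosb stayed below 1 TPM in both libraries, the minimum for a gene to be compared. Fosl1 passed that minimum only through NIH3T3 cells and Atf3 only through mESCs. The median difference of all genes compared was -0.13, and the counts of the 10 genes were the same after centring on it. Without the minimum, the median difference was 0.79 over the 10 genes and 0 over 21923 genes. In bulk RNA, fewer cells that express a gene and less RNA per cell cannot be told apart.

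Of Fos, Fosb and Fosl1, only Fosl1 was at least 2-fold higher in NIH3T3 cells on the scale above. Fosl1, which encodes the AP-1 subunit Fra-1, stood at 0.287 TPM in mESCs (9 estimated counts) and 106 TPM in NIH3T3 cells (3582 counts). This was a 369.6-fold higher level in NIH3T3 cells (194 to 809), and Fosl1 was the highest of the 10 genes there and the second lowest in mESCs. Fos itself, the founding member of the family, stood at 2.73 TPM in mESCs (2.24 to 3.29, 110 counts) and 3.27 TPM in NIH3T3 cells (2.76 to 3.86, 143 counts). The ratio of 1.2 (0.929 to 1.55) was within counting error. Fosb was nearly silent, at 0.105 TPM in mESCs from 2 counts and 0.486 TPM in NIH3T3 cells from 45 counts. The ratio of 4.61 had an interval from 1.38 to 44.9, and it compared different transcripts, Fosb-206 in mESCs and Fosb-205 in NIH3T3 cells. Summed over transcripts, Fosb reached 0.185 TPM in mESCs and 0.993 TPM in NIH3T3 cells.

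Jun and Junb were both higher in NIH3T3 cells, unlike the related Jund described further on. Jun, the main partner of Fos in AP-1, stood at 3.25 TPM in mESCs and 55.2 TPM in NIH3T3 cells, 17.0-fold higher (14.8 to 19.6). Junb, a related subunit with a weaker activity of its own, stood at 35.2 and 82.9 TPM, 2.35-fold higher (2.21 to 2.51). So Junb was the more abundant of the pair in both lines, by a wide margin in mESCs and a smaller one in NIH3T3 cells. An antisense gene, Junos, overlaps the start of Jun. The libraries were strand-specific by the labels, but the strand setting of the counting is not given in the sources used here.

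Egr1 and Srf were higher in NIH3T3 cells as well. Egr1, a zinc finger factor that is a direct target of SRF and the Elk proteins, stood at 15.9 TPM in mESCs and 73.6 TPM in NIH3T3 cells, 4.64-fold higher (4.33 to 4.97). Nearly all of it came from the transcript Egr1-202, since Egr1-201 stood at 1.22 and 4.42 TPM. Srf, which encodes the serum response factor, stood at 12.7 and 29.3 TPM, 2.32-fold higher (2.13 to 2.53) in NIH3T3 cells.

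Ier2 and Dusp1 went the other way. Ier2, a small intronless gene whose product regulates transcription, was the highest of the 10 genes in mESCs, at 102 TPM (98.5 to 105), and stood at 40.5 TPM (38.4 to 42.7) in NIH3T3 cells, a 2.51-fold difference (2.36 to 2.68). Dusp1, a phosphatase that switches off MAP kinases, stood at 21.5 TPM in mESCs and 4.22 TPM in NIH3T3 cells, 5.1-fold higher in mESCs (4.34 to 6.02). Atf3, a stress-induced repressor, was low in both, at 1.3 TPM in mESCs and 0.923 TPM in NIH3T3 cells, from 7 and 5 counts of a non-coding transcript. Its coding transcripts Atf3-203 and Atf3-201 stood at 0.666 and 0.587 TPM in mESCs and at 0.552 and 0.548 TPM in NIH3T3 cells. Summed over its 3 transcripts, Atf3 stood at 2.55 TPM in mESCs (52 counts) and 2.02 TPM in NIH3T3 cells (48 counts).

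The order of the levels also differed between the lines. In mESCs it ran from Ier2 over Junb, Dusp1, Egr1 and Srf to Jun, Fos, Atf3, Fosl1 and Fosb, and from Jun downwards each gene's counting interval overlapped that of the next. In NIH3T3 cells it ran from Fosl1 over Junb, Egr1, Jun, Ier2 and Srf to Dusp1, Fos, Atf3 and Fosb, and the intervals overlapped for Dusp1 with Fos and for Atf3 with Fosb. The levels of the 10 genes added up to 195 TPM in mESCs and 397 TPM in NIH3T3 cells.

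**Figure D1:**
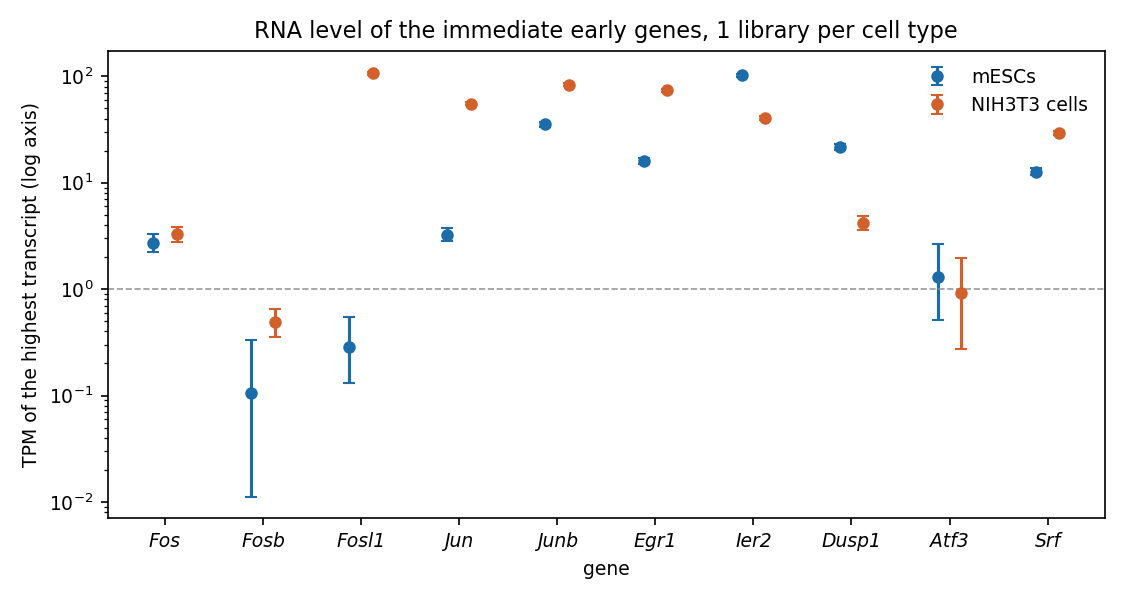
RNA level of each of the 10 genes in TPM (log axis) in mESCs (blue) and NIH3T3 cells (orange), with 1 library per cell type. Points are the transcript with the highest TPM in that library, bars the 95% exact interval for counting error, and the dashed line marks 1 TPM. Fosl1 rises from 0.287 to 106 TPM between mESCs and NIH3T3 cells, whereas Ier2 and Dusp1 are lower in NIH3T3 cells.

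Beyond the 10, a list of 45 other immediate early genes was read in the same way. Of these, 22 were at least 2-fold higher in NIH3T3 cells and 6 in mESCs, beside the 20% and 23.9% of all genes given above, and 4 stayed below 1 TPM. Of the 22, 6 (Egr2, Egr3, Ier5, Nr4a2, Gadd45g and Tnfaip3) reached the minimum of 1 TPM only in NIH3T3 cells, and of the 6, Arc reached it only in mESCs, so these could be counted in 1 direction only. The largest differences were at Ier5 (0.383 TPM in mESCs and 55.6 TPM in NIH3T3 cells), Fosl2 (1.14 and 74.6 TPM), Ier3 (3.16 and 105 TPM) and Cyr61 (5.32 and 139 TPM). Fosl2 encodes Fra-2, the closest relative of the Fosl1 product, and Cyr61 a secreted matrix protein. Jund, the remaining Jun gene, was higher in mESCs (77.3 TPM) than in NIH3T3 cells (23.6 TPM), opposite to Jun and Junb.

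**Figure D2:**
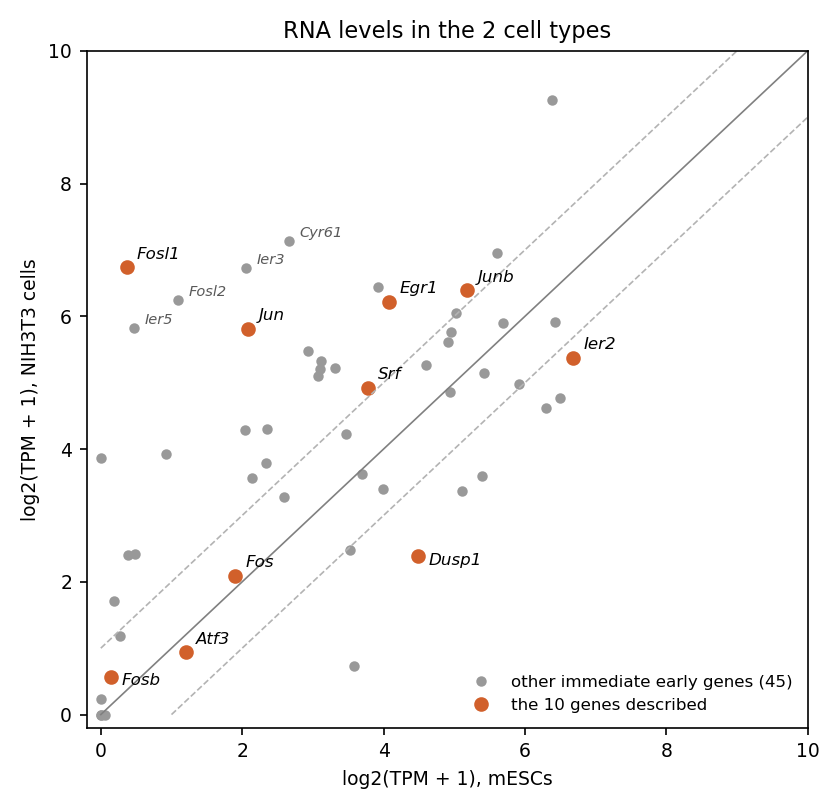
log2(TPM + 1) in mESCs (x axis) against NIH3T3 cells (y axis) for the 10 genes (orange, named) and the 45 other immediate early genes (grey, with the 4 largest differences named). The solid line marks equal levels and the dashed lines a 2-fold difference, and 5 of the 10 genes lie above the upper dashed line and 2 below the lower one.

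The kinases and transcription factors that act upstream of these genes were read as well. Of 12 such genes, 3 were at least 2-fold higher in NIH3T3 cells and 2 in mESCs, close to the 20% and 23.9% of all genes. The pair higher in mESCs were Rps6ka1 and Mapk3, and Mapk3, the gene of the kinase ERK1, lost its difference when transcripts were summed (93.8 and 89.1 TPM in mESCs and NIH3T3 cells). The ternary complex factor gene Elk3 stood at 7.0 TPM in mESCs and 42.9 TPM in NIH3T3 cells. Mkl1, an SRF coactivator, stood at 6.85 and 24.1 TPM, and the kinase gene Rps6ka3 at 7.42 and 21.9 TPM. The values of Elk3, Rps6ka3 and Elk4, another ternary complex factor gene (8.48 and 14.1 TPM), come from different transcripts in the 2 libraries. Summed over transcripts, Rps6ka3 stood at 25.9 and 35.6 TPM, less than 2-fold apart, whereas Elk3 stood at 17.4 and 109.5 TPM and Elk4 at 15.9 and 50.4 TPM, both then at least 2-fold higher in NIH3T3 cells. Rps6ka1, a related kinase gene, stood at 48.3 TPM in mESCs and was listed at 0 in NIH3T3 cells. It reached the minimum of 1 TPM only in mESCs, so it could be counted in 1 direction only. Immediate early genes also respond to handling stress, so 5 heat shock genes were read beside them. Hspa1b stood at 5.62 and 7.57 TPM, Hsph1 at 45.2 and 41.9 TPM and Dnajb1 at 33.2 and 18.5 TPM in mESCs and NIH3T3 cells. Hspb1 stood at 1049 TPM in mESCs and was listed at 0 in NIH3T3 cells. Their part in the levels of the 10 genes was not tested.

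All 10 genes had a Ctr9 peak in NIH3T3 cells. Over all protein-coding genes, 26.9% had one. Of the 8 genes with at least 1 TPM in these cells, 8 had one, against 46.2% of all genes at that level. Peak strength is given as the authors' fold enrichment over local background, which depends on the library, so strengths were set side by side between the cell types only as percentiles among the genes with a peak in the same list. Egr1 had the strongest peak, at 47.8-fold, which was the highest of the 22016 peaks in the list. Jun followed at 33.3-fold, rank 10 of 5902 genes with a peak. Ier2 stood at 19.6-fold (98.4th percentile), Fos at 15.2-fold (96.3rd) and Fosb at 14.2-fold (95.7th). Dusp1 at 11.2-fold, Junb at 10.8-fold and Fosl1 at 8.01-fold were between the 83.6th and the 92.9th percentile. Atf3 at 5.96-fold and Srf at 5.37-fold were the weakest, at the 64.6th and 52.8th percentile. The Ctr9 strength was not ordered like the RNA level. Fosl1, with the highest TPM, had one of the weaker peaks, and Fosb, under 1 TPM, one of the stronger ones.

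In mESCs, 7 of the 10 genes had a Ctr9 peak. This was the case for 45.6% of all protein-coding genes, and for 6 of the 8 genes with at least 1 TPM there, against 74.7% of all such genes. Here and for the other lists of mESCs, Atf3 is among the 8 only through a non-coding transcript with 7 counts. Egr1 was again first, at 19.7-fold (96.4th percentile). Ier2 stood at 12.0-fold (88.7th), Junb at 9.10-fold (79.0th) and Dusp1 at 7.12-fold (66.3rd). Fosl1 at 4.55-fold, Fos at 3.16-fold and Srf at 3.03-fold had narrow peaks between 223 and 267 bps wide. Those of Fos and Srf lay beyond the gene, that of Srf 74 bps from the start of its neighbour Cul9. With 1 kb in place of 5 kb on each side, 6 genes had a Ctr9 peak, and Srf had one in NIH3T3 cells only. Jun, Fosb and Atf3 had none. So 3 of the 10 genes had Ctr9 in NIH3T3 cells and not in mESCs, against 3.32% of all protein-coding genes. Since all 10 had a peak in NIH3T3 cells, the closer comparison is with the 5902 genes that had one there. Of those, 728 had none in mESCs. For the same reason none of the 10 could have the reverse, which 22% of all genes had. At Jun, Ctr9 in NIH3T3 cells only went with the 17.0-fold higher RNA level in NIH3T3 cells. Fosb and the most abundant transcript of Atf3 were under 1 TPM there. Among the 45 other immediate early genes, 10 had Ctr9 in NIH3T3 cells only, 3 in mESCs only and 25 in both. The number of reads reached behind each peak list is unknown beyond the paper's stated aim, so a missing peak says only that none was listed.

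H3K27ac peaks lay at all 10 genes in NIH3T3 cells and at 7 in mESCs. Over all protein-coding genes the shares were 56% in NIH3T3 cells and 44.5% in mESCs. Among genes with at least 1 TPM, they were 93.6% and 74.3%, beside 8 of 8 and 6 of 8 of the genes described. In NIH3T3 cells the strongest mark was at Fosb (39.7-fold, 98.2nd percentile), the gene with the lowest RNA level of the 10. Ier2 (35.5-fold), Dusp1 (35.2-fold), Junb (33.7-fold) and Fos (33.0-fold) were at the 93.9th percentile or above, and Atf3 was lowest at 10.0-fold. In mESCs the marks at Fosb (10.7-fold) and Dusp1 (10.6-fold) were the strongest, but the Fosb peak lay 8938 bps downstream of its start, beyond the end of the gene. Fosb had a peak there in NIH3T3 cells too, at 8953 bps. At the start of Fosb, a peak of 2922 bps was present in NIH3T3 cells and none in mESCs. In mESCs a peak of 3.60-fold lay inside the gene, 1616 bps downstream of the start, in the stretch that the NIH3T3 peak covers. Ier2, with the highest RNA level of the 10 in mESCs, had weak H3K27ac there (2.94-fold, 2.88th percentile). That peak lay 6175 bps downstream of the Ier2 start, beyond the end of the gene, and the peak on the gene itself was 2.07-fold. Fos, Fosl1 and Atf3 had no H3K27ac peak in mESCs.

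NELFA, measured in mESCs only, had peaks at 6 of the 10 genes, Fos, Jun, Junb, Egr1, Ier2 and Dusp1. Over all protein-coding genes 10.9% had one, and the 6 were among the 8 genes with at least 1 TPM, of which 19.3% overall had one. Junb (10.8-fold), Ier2 (9.51-fold), Dusp1 (8.5-fold) and Fos (7.93-fold) were between the 87.7th and the 94.2nd percentile. Jun (4.50-fold) and Egr1 (4.48-fold) were at the 30.2nd and the 29.3rd. Fos and Jun thus had NELFA at the start in mESCs without any Ser5p peak, and at Jun without Ctr9. RNAPII Ser5p, the form of initiating polymerase, had peaks at 4 of the 10 genes, against 13.5% of all genes and, for 4 of 8 at 1 TPM or more, 23.6%. They were Ier2 (21.3-fold, rank 38 of 2952), Junb (11.1-fold), Dusp1 (7.60-fold) and Egr1 (7.51-fold), the 4 genes with the strongest Ctr9 in mESCs. RNAPII Ser2p, the form of elongating polymerase, had peaks at 2 of the 10, against 7.54% of all genes and, for 2 of 8 at 1 TPM or more, 12.8%. They were Ier2 (14.2-fold, rank 40 of 1655) and Junb (6.28-fold), the 2 genes with the highest RNA level in mESCs. Fosb, Fosl1, Atf3 and Srf had none of the 3.

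**Figure D3:**
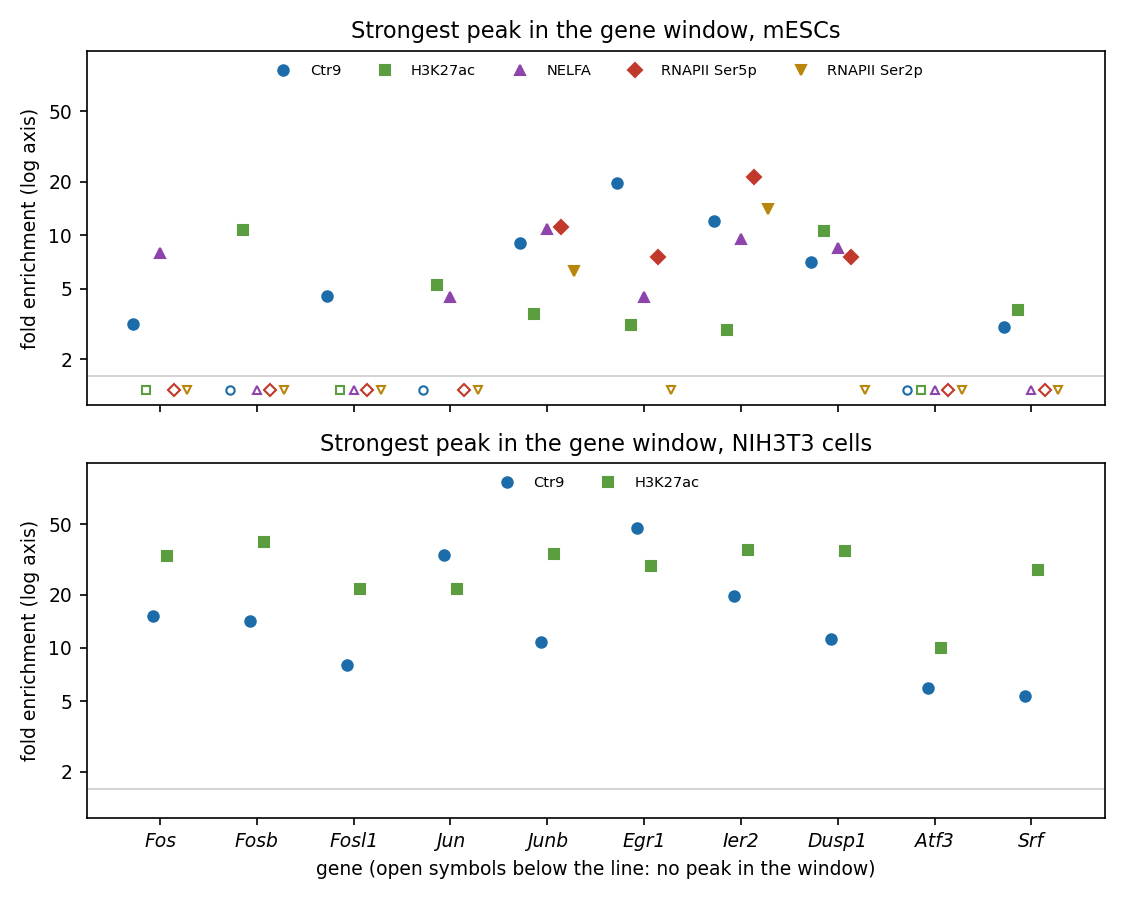
Fold enrichment (log axis) of the strongest peak of each list in the window of each gene, for mESCs (top, 5 lists) and NIH3T3 cells (bottom, 2 lists), with open symbols below the grey line where a list has no peak. Every gene has both marks in NIH3T3 cells, with Egr1 at 47.8-fold and Jun at 33.3-fold for Ctr9, whereas in mESCs only Junb and Ier2 have peaks in all 5 lists. Heights are comparable within a list and not between lists.

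In NIH3T3 cells, Ctr9 peaks covered at least 50% of the transcript span at 8 of the 10 genes, against 2.64% of all protein-coding genes. The cover was 100% at Fos, Fosb, Jun, Junb, Egr1, Ier2 and Dusp1 and 85.2% at Fosl1, and it was 2.84% at Srf and 1.26% at Atf3. In mESCs it was at least 50% at 4 genes, against 4.5% of all genes, with 100% at Ier2 and Junb, 98.6% at Egr1 and 64.9% at Dusp1. The genes are short, which makes a high cover easier to reach, and the part of length was not tested. The shares of all genes include those without RNA, as 10743 of 21938 genes had at least 1 TPM in NIH3T3 cells. For cover, no share among such genes is given. The median transcript span was 3567 bps for the 10 genes and 14822 bps for all genes. Among the 45 other immediate early genes, 19 reached 50% in NIH3T3 cells and 12 in mESCs.

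Single peaks show this. At Fosb in NIH3T3 cells, 1 Ctr9 peak of 8313 bps ran from 59 bps upstream of the start to 8253 bps downstream, past the end of the 7345-bp transcript. At Jun, a peak of 5032 bps had its summit 2984 bps downstream of the start, near the end of the 3189-bp transcript. At Egr1, the peaks of the lines were almost the same width, 5557 bps in NIH3T3 cells and 5272 bps in mESCs, but the summit lay 613 bps from the start in NIH3T3 cells and 4220 bps from it in mESCs, beyond the end of the transcript of 3750 bps. At Ier2 in mESCs, Ctr9 peaks of 9292 and 9520 bps lay side by side, far wider than the 1522-bp gene, and Ser5p (6717 bps) and Ser2p (3658 bps) peaks covered the gene too. At Fos, Ctr9 in NIH3T3 cells covered 4275 bps from 34 bps upstream of the start, and in mESCs 261 bps beyond the end of the gene.

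**Figure D4:**
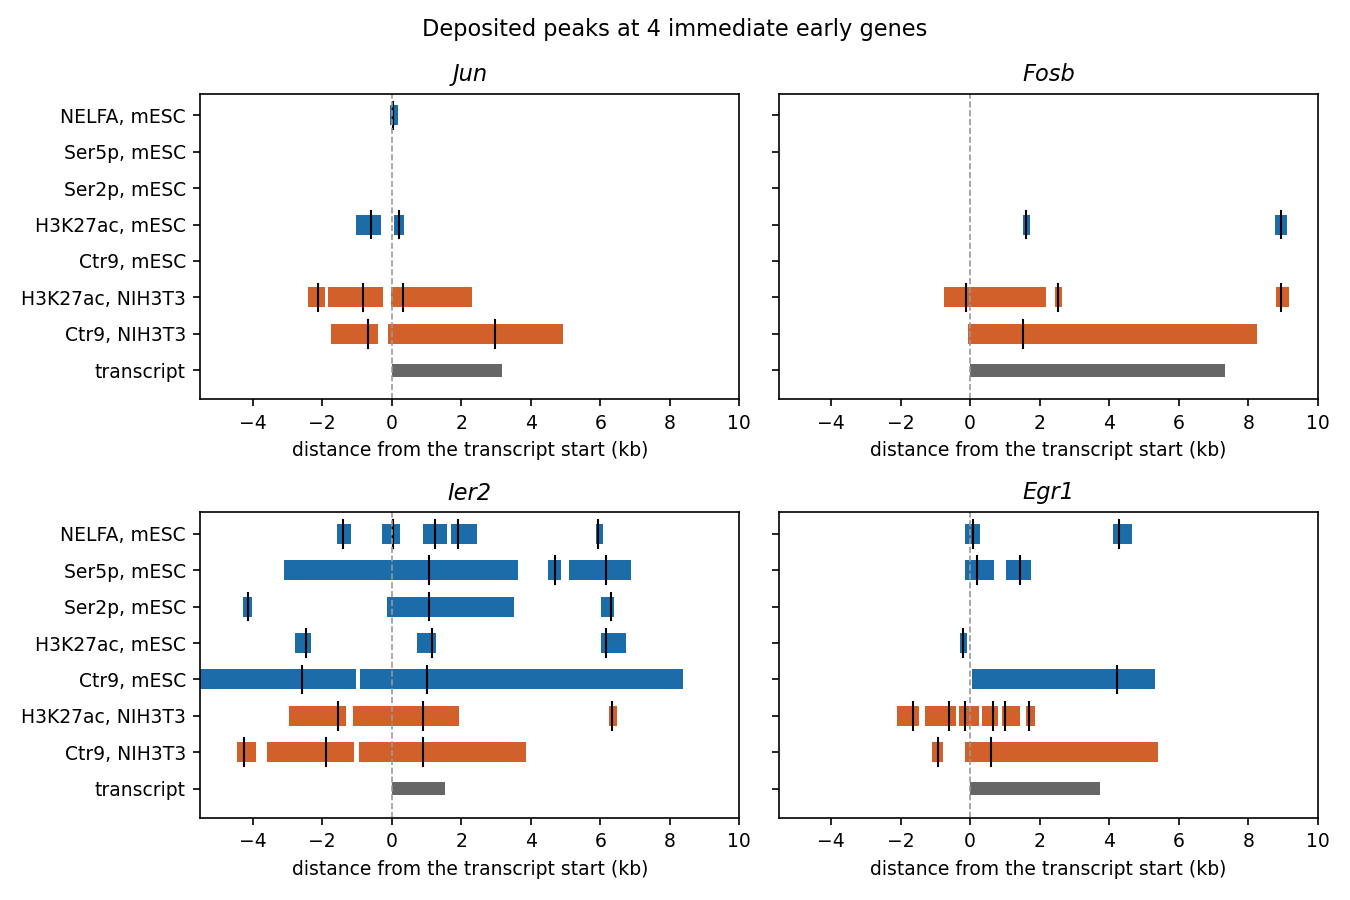
Peaks of the 7 lists (bars, with the summit as a black line) along Jun, Fosb, Ier2 and Egr1, in kb from the transcript start, blue for mESCs and orange for NIH3T3 cells, with the transcript in grey. Jun and Fosb have wide Ctr9 peaks of 5032 and 8313 bps in NIH3T3 cells and none in mESCs, whereas Ier2 and Egr1 have them in both. One Ctr9 peak of Ier2 in mESCs runs past the left edge.

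The study asked how Paf1C, NELF and RNAPII are placed along genes, and for protein-coding genes it measured peaks around the start site. At the 10 genes, the summit of the strongest peak of each list in mESCs was taken anywhere in the window. These distances are therefore not the measure of the study. Over all genes with a peak, their median was 26 bps for NELFA, 142 for Ser5p, 13607 for Ctr9 and 6479 for Ser2p. NELFA lay at the start at 5 of its 6 genes, at -4 bps from it at Junb, 34 at Ier2, 42 at Jun, 56 at Fos and 135 at Dusp1. The exception was Egr1, whose strongest NELFA peak lay at 4279 bps (4.48-fold), with a second of nearly the same strength at 98 bps (4.37-fold). Ser5p lay at 40 bps at Junb, 161 at Dusp1, 198 at Egr1 and 1083 at Ier2. Ctr9 lay inside the transcript at Ier2 (1017 bps) and Fosl1 (4270). At Junb (2390 bps), Fos (3604), Dusp1 (3803) and Egr1 (4220) it lay past the transcript end, as did the only Ctr9 peak of Srf (9861), beside the start of Cul9. Ser2p lay at 1086 bps at Ier2 and 2195 at Junb.

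Ctr9 summits lay downstream of NELFA at 4 of the 5 genes with both, against 77.7% of all genes with both, by 983 bps at Ier2, 2394 at Junb, 3548 at Fos and 3668 at Dusp1. At Egr1 the summits were 59 bps apart in the opposite order. Ctr9 lay downstream of Ser5p at 3 of 4 genes, against 69.5% of all genes with both, and Ser5p downstream of NELFA at 3 of 4, against 55.7%. Ser2p lay downstream of Ctr9 at 1 of 2, against 48.9%. The full order NELFA, Ser5p, Ctr9, Ser2p, which needs all 4 summits, was met at 0 of the 2 genes that had them, and at 16.5% of the 702 genes that had them. At Ier2, Ser5p lay 66 bps beyond Ctr9, and at Junb, Ctr9 lay 195 bps beyond Ser2p. With 2 to 5 genes a count, no departure from the shares of all genes can be read from these. With the summit nearest to the start in place of the strongest, Ctr9 lay at -1106 bps at Junb, upstream of NELFA, and Egr1 took the order of the others, so that the 4 of 5 were then Dusp1, Egr1, Fos and Ier2, against 66.3% of all genes with both. Ctr9 then lay downstream of Ser5p at 2 of 4 genes, against 53.9%.

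**Figure D5:**
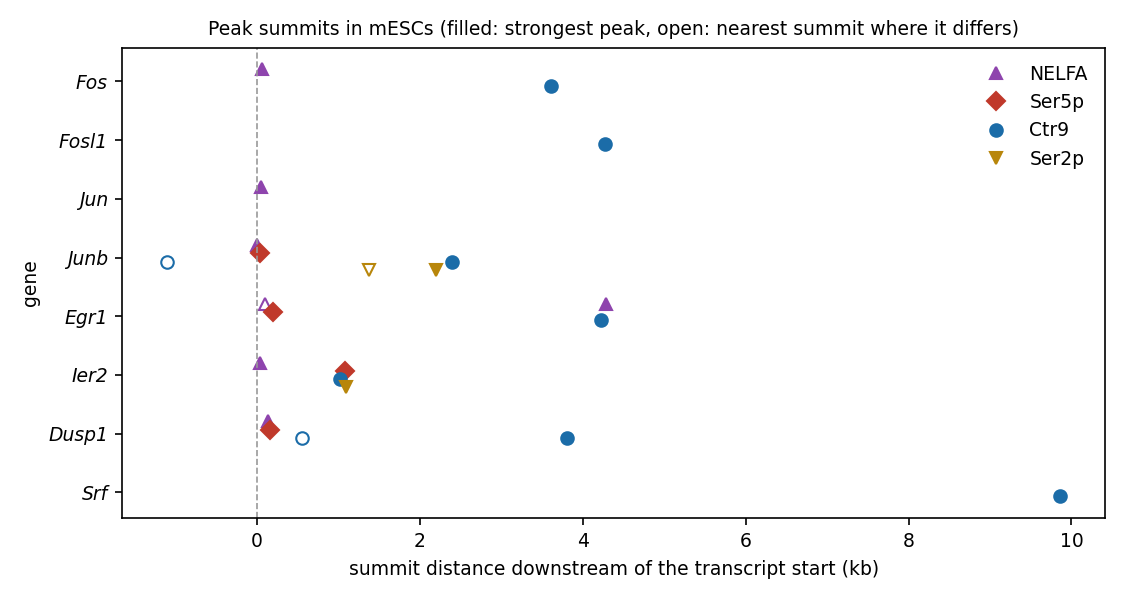
Summit positions of NELFA, Ser5p, Ctr9 and Ser2p in mESCs at the 8 genes with a peak in any of these lists, in kb downstream of the transcript start (dashed line). Filled symbols are the strongest peak and open symbols the nearest summit where it is another one. The strongest NELFA summit lies within 135 bps of the start at all its genes but Egr1, which has another NELFA summit at 98 bps. The strongest Ctr9 summit lies 1017 bps or more downstream at each of 7 genes, that of Srf beside the start of Cul9.

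Some of these peaks lie close to the start of another gene. Of the 123 peaks in the windows, 17 had their summit nearer to the annotated start of another protein-coding gene than to that of the gene described. The only Ctr9 peak of Srf in mESCs lay 74 bps from the start of Cul9, and the strongest in NIH3T3 cells 59 bps from it. Cul9 itself stood at 0.173 and 0.141 TPM. The other Ctr9 peak at Srf, 83 bps from its own start in NIH3T3 cells, was 2.90-fold. The strongest Ctr9 peak of Fosl1 in NIH3T3 cells lay 786 bps from the start of Ccdc85b, which overlaps Fosl1 on the opposite strand and stood at 11.3 TPM in mESCs and 66.4 TPM in NIH3T3 cells, and the peak at the start of Fosl1 itself was 7.08-fold. Fibp lies further along the same window. At Junb, peaks 9025 bps and more from its start lay at the starts of Prdx2 and Rnaseh2a, and at Dusp1 the far end of the window reached Ergic1. At Atf3, the Ctr9 peak of NIH3T3 cells lay 35421 bps from the long form's start and close to the second start.

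The genes with the most complete set of peaks were Ier2 and Junb, with all 7 lists, and Egr1 and Dusp1, with 6, of which Egr1, with the higher Ctr9 peak in mESCs (19.7-fold against 7.12-fold), was taken as the third for a comparison with other genes. By the distance over 9 values (log2 of RNA levels in 2 libraries and of the strongest peak in 7 lists), the genes most like Ier2 were Mrps18b (distance 1.55), Slc3a2 (1.67) and Idh3b (1.72). Those most like Junb were Zfp36l1 (1.25), itself among the other immediate early genes, Bclaf1 (1.55) and Insig1 (1.65). Those most like Egr1 were further away, Amotl2 at 2.02, Enoph1 at 2.36 and Kmt2e at 2.54.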

How the data were processed

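RNA-seq was made from 1 library each of mESCs and NIH3T3 cells, and ChIP-seq from 1 library per target. Of 12 samples, 9 have a processed file, and the 3 inputs were not used here. For ChIP-seq, the authors used Bowtie2 2.3.5.1 and the mm10 genome, then called peaks in each library with MACS2 2.2.6, keeping q-values up to 0.01. In the deposited lists the score is a whole-number form of the −log10 q-value, the fold enrichment is a ratio of the summit pileup to the local background, and the summit's p-value and q-value are given as −log10. For RNA-seq, kallisto 0.46.1 with GENCODE M19 transcripts gave the estimated counts and the TPM values that the authors deposited. The paper gives an intended ChIP-seq depth per sample, but the depth reached is unknown, since no reads are counted in the lists. Versions are from the submitters' processing notes.

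The 10 genes and all gene lists were chosen with earlier results of these data known. Gene bodies were taken from GENCODE M21 on protein-coding genes of assembled chromosomes, with 5 kb on each side and an overlap of at least 1 bp. The gene level was the transcript with the highest TPM, chosen in each library separately. The study used the highest transcript per gene and does not state whether it was chosen per library. A gene was compared when it had a coding transcript and at least 1 TPM in a library, with a pseudocount of 1 TPM. Intervals of ratios were exact binomial ones on rounded estimated counts at 95%. Genes without a listed coding transcript (121) kept their annotated start. Named are the 10 genes, the 4 genes of each list with the largest absolute log2 difference among those compared, the 3 genes nearest by Euclidean distance to each of the 3 genes with the most peak lists (a tie went to the gene with more Ctr9 enrichment in mESCs), and coding genes whose start lies in a window. Jund, Nanog, Vim, Mapk3, Elk4, the genes that passed the minimum in 1 library only and the noncoding Junos were chosen outside the rule, with their values known. Computations used Python 3.11.15, pandas 2.3.3, NumPy 2.4.6, SciPy 1.17.1 and Matplotlib 3.10.9, and 7 of 7 checks on simulated data passed. In all, 67 alternatives were planned and 13, with the CRE core, were added after the files were seen.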

Additional observations from a re-analysis of the deposited data

How the results depend on the processing

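The alternatives were the sum over transcripts or coding transcripts only, a pseudocount of 0.1, centring, no minimum level, a −log10 q of at least 5, 1 kb in place of 5 kb, summits in place of overlaps, the summit nearest to the start, and promoters without the bases after the start. Of 73 recomputed counts, 70 stayed within 1.5 times their value, among them all counts of genes with a peak and, for the 10 genes and the 45 other immediate early genes, of those at least 2-fold higher. The count of upstream genes higher in mESCs went from 2 to 1 with the sum over transcripts and with centring, alternatives chosen after seeing the data. The count of genes with Ser2p downstream of Ctr9 went from 1 to 2 of 2 with the summit nearest to the start, as the share of all genes with both went from 48.9% to 73.1%. Of 141 recomputed single values, 12 moved by more than counting error or to another peak and 0 changed direction. Among these, the log2 difference of Fosl1 was 8.10 with a pseudocount of 0.1, and the H3K27ac of mESCs at Fosb was 3.60-fold with 1 kb, which leaves out the peak beyond the gene. No paired analysis was possible because each group has 1 library and no test was made. With 1 library per group, the spread between cultures is unknown for every value, and levels from 2 to 9 counts (Fosb and Fosl1 in mESCs, and the transcript taken for Atf3 in both libraries) are limited by depth.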
